A study of Homo sapiens with 16 samples.

Results

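The messenger RNAs of 10 glycolytic enzymes, GPI, PFKP, ALDOA, TPI1, GAPDH, PGK1, PGAM1, ENO1, PKM and LDHA, were examined in HMC3 cells, an immortalised human microglial line. The list was chosen by TPM levels and log2 changes already computed from these same files, and all 10 symbols were found among 60669 genes. The cells were wild type or labelled knockout of METTL3, the catalytic subunit of the enzyme that writes N6-methyladenosine on RNA, and no treatment is named for either label. Smart-seq2 libraries of polyadenylated RNA numbered 5 per genotype, and libraries made with a directional kit after removal of ribosomal RNA numbered 3 per genotype, all from 100 ng of RNA. The labels do not give the deleted part of METTL3, the number of knockout clones, or whether replicates came from separate cultures, so p-values measure only the spread between these libraries.

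Glycolysis splits glucose into pyruvate and yields ATP and NADH. GPI and PFKP rearrange and phosphorylate the sugar, ALDOA and TPI1 split it into triose phosphates, GAPDH and PGK1 carry out the first oxidation and the first ATP-forming step, PGAM1, ENO1 and PKM lead to pyruvate, and LDHA reduces pyruvate to lactate. Microglia raise glycolysis when they are activated, and in many cell types the hypoxia-inducible factors increase transcription of these genes through sites with the core ACGTG or GCGTG.

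The starts of 3 of the genes are shown because GAPDH and PGK1 had the largest increases in the rRNA-depleted libraries and ENO1 one of the largest decreases, each with a single start listed in RefSeq on GRCh38.p14. Each line gives the 250 bases before the start, 5′ to 3′ on the strand of the gene, with every ACGTG or GCGTG on either strand in capitals (matches on the other strand read CACGT or CACGC). The GAPDH window is chr12:6535014-6535263 on the plus strand. That of PGK1 is chrX:78103998-78104247 on the plus strand, and that of ENO1 chr1:8878687-8878936 on the minus strand. In the GENCODE annotation these genes begin further upstream, GAPDH at 6533927, PGK1 at 77910739 and ENO1 at 8879250. The windows therefore lie inside the annotated genes, before the RefSeq start and not before the outermost start.
GAPDH: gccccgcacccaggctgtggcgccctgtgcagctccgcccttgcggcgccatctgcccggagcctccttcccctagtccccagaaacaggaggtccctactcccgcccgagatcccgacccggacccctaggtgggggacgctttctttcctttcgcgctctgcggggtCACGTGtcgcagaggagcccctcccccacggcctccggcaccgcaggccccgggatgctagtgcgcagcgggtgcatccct
PGK1: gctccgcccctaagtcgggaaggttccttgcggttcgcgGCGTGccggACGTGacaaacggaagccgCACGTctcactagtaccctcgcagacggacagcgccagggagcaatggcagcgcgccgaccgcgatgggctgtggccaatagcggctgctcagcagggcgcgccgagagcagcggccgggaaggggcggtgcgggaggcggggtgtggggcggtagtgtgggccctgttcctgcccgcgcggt
ENO1: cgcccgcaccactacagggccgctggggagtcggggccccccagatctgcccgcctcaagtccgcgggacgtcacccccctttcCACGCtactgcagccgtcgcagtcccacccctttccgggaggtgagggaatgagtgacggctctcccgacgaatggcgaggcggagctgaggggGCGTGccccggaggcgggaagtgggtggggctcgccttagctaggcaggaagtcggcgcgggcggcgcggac
In GAPDH the 2 matches overlap in the palindrome CACGTG, PGK1 had 3 matches and ENO1 had 2. All 10 genes matched a RefSeq promoter, with 17 listed windows of 250 bases before and 50 after a start. ACGTG or GCGTG stood in 13 of the 17 windows, against 48.4% of all 35116 windows, and CACGTG in 3 of 17, against 7.26%. GGGCGG, the core bound by SP1, stood in 11 of 17 windows against 45.0%, and TATAAA in 0 of 17 against 11.5%. The enzymes' windows were richer in G and C, with a median GC content of 69.7% against 58.7% for all windows, and these motifs were searched on both strands. A match describes letters and not a bound site, and windows of 1 gene can overlap. Bases before starts that are not listed were not searched, so a motif absent here may stand before another start.

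The rRNA-depleted libraries held 407900, 266157 and 487272 reads in the wild type and 1038575, 1267171 and 512627 in the libraries labelled knockout, as recovered from the deposited TPM (reads per gene length, scaled to the same total in each library). Libraries 1 and 2 labelled knockout differed by no more than sampling noise (chi-square per degree of freedom 1.02 over 10120 genes, p = 0.0650, against 1.16 to 1.53 in the other pairs). They were averaged and counted as 1 sample, which leaves n = 3 wild-type and n = 2 knockout-labelled samples. Genes annotated as protein coding took 60.7% to 63.6% of TPM (wild type) and 75.8% to 77.3% in the libraries labelled knockout, and the median log2 change of all tested genes was 0.41. METTL3 itself had 31.2, 31.6 and 25.4 TPM (wild type) and 39.2, 40.0 and 42.7 TPM (knockout label; limma adjusted p = 0.106), so its level did not check the label. In the authors' deposited table for the poly(A) libraries, METTL3 had a log2 fold change of 0.09 (SE 0.11). Of 12 microglial markers, 8 were at 0 in all 6 rRNA-depleted libraries, AIF1, CX3CR1, P2RY12, TMEM119, ITGAM, PTPRC, TYROBP and SPI1. The summed TPM of 9 mesenchymal markers was 11650 to 14076 in the wild type and 5624 to 5722 in the libraries labelled knockout. That of 5 epithelial markers was 730 to 804 and 334 to 340. This epithelial sum was nearly all KRT18 (719 against 323 TPM), with KRT8 at 53.7 against 12.6 TPM. EPCAM and CDH1 averaged 0.65 and 0.17 TPM over all 6 libraries, and KRT19 was at 0. The mesenchymal sum was carried by COL1A1, a collagen chain, at 10669 ± 1214 TPM in the wild type against 819 ± 64.5 TPM. COL1A2 (559 against 122 TPM) and PDGFRB (93.0 against 43.3 TPM) were also lower with the knockout label. THY1 (127 against 264 TPM), FN1 (835 against 2191 TPM) and VIM (477 against 2242 TPM) were higher with the knockout label. In the authors' deposited table, with positive read as higher with the knockout label, COL1A2 (0.30) and FN1 (-0.34) went the opposite way. PDGFRB (-0.05) did not pass an adjusted p under 0.05 there. COL1A1 (-0.79), THY1 (0.58), VIM (0.49), KRT18 (-0.94) and KRT8 (-2.38) kept their direction. The part of these marker shifts in the enzyme values was not tested.

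In rRNA-depleted RNA the enzymes moved apart. GAPDH, PGK1 and GPI were higher in the libraries labelled knockout, TPI1, ENO1 and PFKP were lower, and ALDOA, PGAM1, PKM and LDHA did not pass the threshold. The threshold was a limma adjusted p under 0.05 over 14789 genes, which 35.3% of them passed, 22.9% higher and 12.4% lower (64.8% of calls higher, or 48.6% under median ratio scaling), so 3 higher and 3 lower of 10 are given as a count only. The enzymes' balance was 2 higher and 4 lower under median ratio scaling and 4 higher and 1 lower with the trend on GC content removed. The enzymes were picked with results of these data known, and their values below are a description without a test. In bulk RNA, less RNA per cell and fewer cells of a kind cannot be told apart. Relative to the median of all genes, 7 of the 10 were lower and 3 higher, with a median of -0.38 on the log2 scale. The 3 wild-type and 3 knockout-labelled libraries did not overlap for 7 of the 10, as for 58.4% of all genes.

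**Figure D1:**
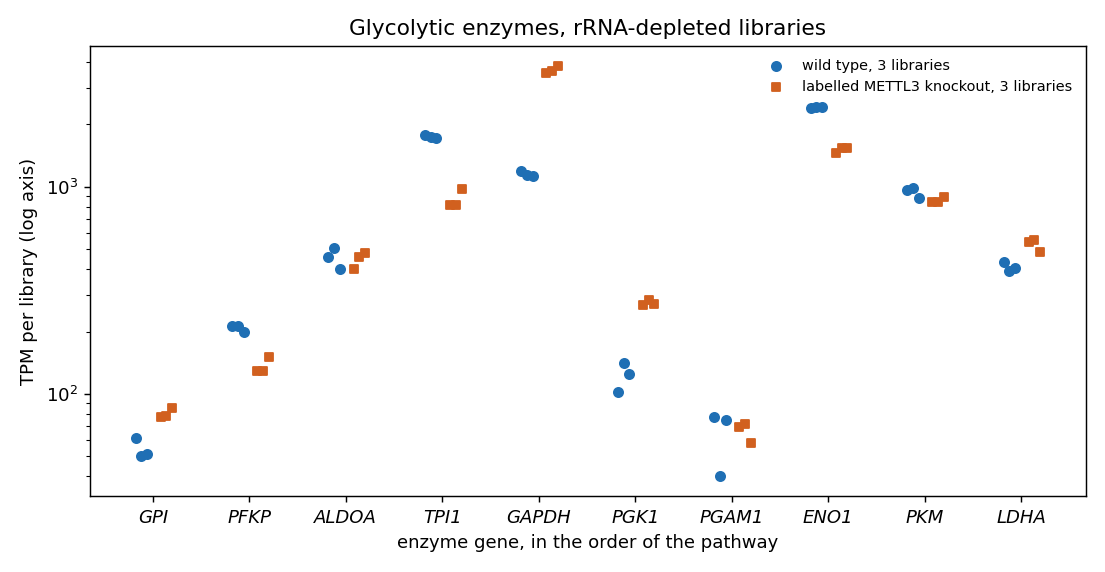
TPM (log axis) of each enzyme in the 3 wild-type (circles) and 3 knockout-labelled (squares) rRNA-depleted libraries, 1 point per library, in pathway order. GAPDH, PGK1, GPI and LDHA lie higher in all 3 libraries labelled knockout, TPI1, ENO1 and PFKP lower in all 3, and ALDOA, PGAM1 and PKM overlap.

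In the upper part of the pathway, GPI, which interconverts glucose 6-phosphate and fructose 6-phosphate, was at 61.4, 49.97 and 51.2 TPM (wild type) and 77.6, 78.5 and 85.8 TPM (knockout label). All 3 libraries labelled knockout lay above the wild type, and the log2 change was 0.59 (SE 0.15), or 0.18 relative to the median of all genes. It lost the threshold in 8 of the 17 settings tried. PFKP, the platelet isozyme of phosphofructokinase and a committing step of the pathway, was at 214, 212 and 199 TPM in the wild type against 130, 129 and 151 TPM. The libraries labelled knockout were all lower, by 0.57 on the log2 scale (log2 change -0.57, SE 0.11), but with the trend on GC content removed the change was -0.03. ALDOA, the main aldolase outside liver, was at 457, 508 and 401 TPM against 401, 459 and 481 TPM. These ranges overlapped, with a log2 change of 0.01 (SE 0.13) that was -0.35 under median ratio scaling and 0.51, past the threshold, with the GC trend removed. TPI1, which equilibrates the triose phosphates, was at 1784, 1744 and 1723 TPM (wild type) and 816, 821 and 971 TPM (knockout label). The groups did not overlap, and the log2 change was -0.97 (SE 0.11), past the threshold in 17 of 17 settings.

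At the oxidation step, GAPDH, which couples oxidation of the triose to NADH formation, was at 1198, 1146 and 1129 TPM (wild type) and 3531, 3625 and 3815 TPM (knockout label). The mean was 3.19-fold higher (1157 ± 35.9 TPM, SD, n = 3, against 3696 ± 168 TPM, n = 2), a log2 change of 1.67 (SE 0.10), past the threshold in 17 of 17 settings. PGK1, which makes ATP from the product of GAPDH, was at 102, 141 and 125 TPM (wild type) and 270, 283 and 271 TPM. Its groups did not overlap and its log2 change was 1.16 (SE 0.16), and 1.18 without knockout-labelled library 3, where it no longer passed the threshold. That setting leaves 1 sample with the knockout label, which is assumed to vary like the wild type, so fewer calls there do not by themselves show smaller changes. TPI1 and GAPDH are both on chromosome 12, 329 kb apart (GENCODE 29 on GRCh38), and their order reversed. GAPDH was 0.661 ± 0.009 times TPI1 in the wild type and 4.15 ± 0.31 times in the libraries labelled knockout (SD over 3 and 2 samples).

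Among the lower steps, PGAM1, which shifts the phosphate of 3-phosphoglycerate, was at 77.2, 40.3 and 74.6 TPM (wild type) and 69.2, 71.5 and 57.8 TPM. It rested on 10 to 67 reads a library, and its change of 0.05 (SE 0.32) on the log2 scale had a 95% interval from -0.77 to 0.87. ENO1, the enolase that forms phosphoenolpyruvate, was at 2391, 2429 and 2443 TPM (wild type) and 1459, 1546 and 1532 TPM (knockout label). These groups stood apart, with a log2 change of -0.67 (SE 0.10) that passed the threshold in 14 of 17 settings and was -0.27 with the GC trend removed. PKM, the pyruvate kinase, was at 964, 991 and 879 TPM against 848, 841 and 892 TPM, overlapping, with a log2 change of -0.12 (SE 0.10) that was 0.33 with the GC trend removed. LDHA, which regenerates NAD+ by reducing pyruvate, was at 433, 393 and 404 TPM (wild type) and 541, 551 and 485 TPM. All 3 knockout-labelled libraries were above the wild type, with a log2 change of 0.33 (SE 0.10), which was -0.03 under median ratio scaling.

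Signs of ALDOA, PGAM1 and LDHA thus turned under median ratio scaling, those of PKM and LDHA with the GC trend removed, and those of ALDOA and PGAM1 also with 1 library left out (lowest -0.08 and -0.25). The changes of GAPDH, PGK1, GPI, TPI1, ENO1 and PFKP kept their sign in all 17 settings. The enzymes' transcripts had a median GC content of 53.2%, against 48.5% for all tested genes. GGACT, the commonest form of the motif that METTL3 methylates, occurred at a median of 1.25 per kb in the longest transcript of each enzyme, against 0.89 for all tested genes. TPI1 had the most, 3.40 per kb, and ALDOA the least, 0.39 per kb. No methylation was measured in these libraries.

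**Figure D2:**
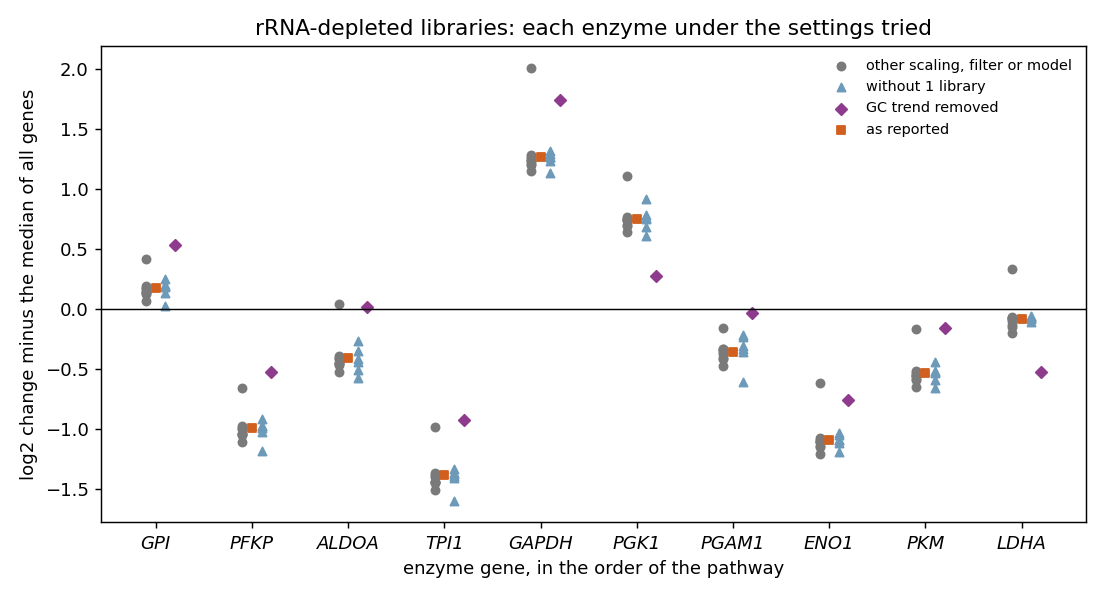
Log2 change of each enzyme minus the median of all genes in rRNA-depleted RNA, under the reported setting (square), other scalings, filters or models (grey), each library left out (triangles) and the GC trend removed (diamonds). GAPDH stays above 1 and TPI1 below -0.9 in every setting, while ALDOA and LDHA lie on both sides of 0.

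In poly(A) RNA the enzymes were mostly lower. In the authors' deposited table, 7 of the 10 were lower with the knockout label, 1 was higher and 2 did not pass an adjusted p under 0.05, which 19.9% of its 14009 tested genes passed (9.55% higher and 10.3% lower). The median log2 fold change of the 10 in the authors' deposited table was -0.42, against 0.02 for all genes. Its headers do not state the direction, so positive values were read as higher with the knockout label. Under that reading the signs matched for 162 of the 177 genes that passed the threshold and a log2 size of 1 in rRNA-depleted RNA and in the authors' deposited table alike. GPI was the 1 enzyme called higher in the authors' deposited table, at 0.40 on the log2 scale (SE 0.12). ALDOA had the largest decrease in the authors' deposited table, with -0.78 (SE 0.11), and ENO1 had -0.51 (SE 0.07). For the authors' deposited table, log2 fold changes were -0.44 for LDHA, -0.43 for PGK1, -0.43 for TPI1, -0.42 for PFKP and -0.21 for GAPDH. The values of the authors' deposited table that did not pass were -0.19 for PGAM1 and -0.11 for PKM. GAPDH and PGK1 therefore stood higher in rRNA-depleted RNA and lower in the authors' deposited table for poly(A) RNA, with no test of the difference between library types. TPI1, ENO1 and PFKP were lower in both, and GPI was higher in both.

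**Figure D3:**
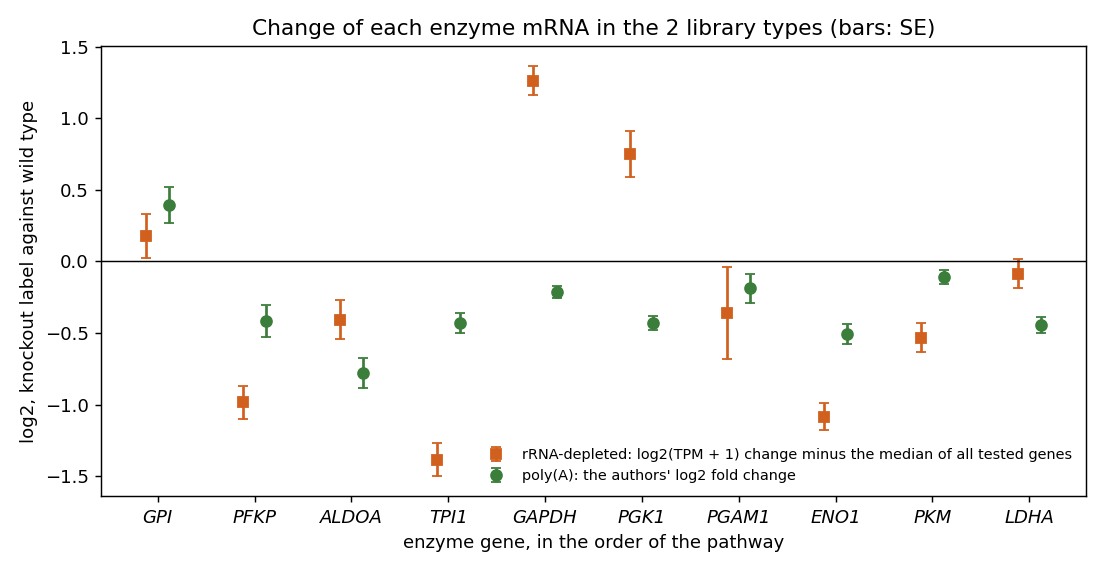
Log2 change with SE (bars) of each enzyme in rRNA-depleted RNA, minus the median of all genes (squares), and in the authors' table for poly(A) RNA (circles). GAPDH lies at 1.26 and PGK1 at 0.75 in rRNA-depleted RNA, and at -0.21 and -0.43 in the poly(A) table.

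The summed level of the 10 was 7588 ± 139 TPM (wild type) and 8507 ± 331 TPM (knockout label), 1.12-fold higher (SD, n = 3 and 2). Rescaled over protein-coding genes it was 0.917-fold. Without GAPDH the sum of the other 9 was 6431 ± 115 TPM (wild type) and 4811 ± 163 TPM with the knockout label, so GAPDH accounted for the higher total. GAPDH made up 15.3% of the summed TPM (wild type) and 43.4% in the libraries labelled knockout, while ENO1 went from 31.9% to 17.8% and TPI1 from 23.1% to 10.5%. In the wild type the order of levels, per length, was ENO1, TPI1, GAPDH, PKM, ALDOA, LDHA, PFKP, PGK1, PGAM1 and GPI. ALDOA and LDHA, and PGAM1 and GPI, had overlapping ranges and were not separated by their spread. GAPDH stood first in the libraries labelled knockout, then ENO1, with TPI1 and PKM overlapping. Lengths were the union of exons, 2568 bases for PGAM1 and 10680 for GPI, so levels of genes with many long isoforms are lowered.

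Isozymes of the same steps also differed. LDHB, the isozyme that favours lactate oxidation, was at 259, 250 and 229 TPM (wild type) and 1051, 1029 and 903 TPM (knockout label) (log2 change 1.98, SE 0.11, limma adjusted p = 0.00105). LDHA was therefore 62.5 ± 1.34% of LDHA plus LDHB in the wild type and 34.7 ± 0.35% in the libraries labelled knockout. The LDHA change minus the LDHB change was -1.65 on the log2 scale, from -1.79 to -1.59 over the settings. In the authors' deposited table for poly(A) RNA, LDHA minus LDHB was -0.50, with LDHB itself at 0.06. PFKL, the liver-type phosphofructokinase, was lower with PFKP, at 106, 90.4 and 97.9 TPM against 56.7, 70.3 and 60.8 TPM (limma adjusted p = 0.0159), and with the GC trend removed it was 0.15 (adjusted p = 0.0876 in limma without knockout-labelled library 3). PFKP kept a like share of phosphofructokinase TPM, 57.1 ± 0.79% against 57.7 ± 4.48%. ENO1 held 97.0% and 96.4% of enolase TPM, and the isozymes GAPDHS, PGK2 and PKLR were at 0 in all 6 libraries. BPGM, which makes 2,3-bisphosphoglycerate, was higher at 27.3 ± 8.11 TPM against 7.86 ± 0.69 TPM (limma adjusted p = 0.0159), on 2 to 18 reads a library, and lost the threshold without knockout-labelled library 3 (limma adjusted p = 0.117).

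**Figure D4:**
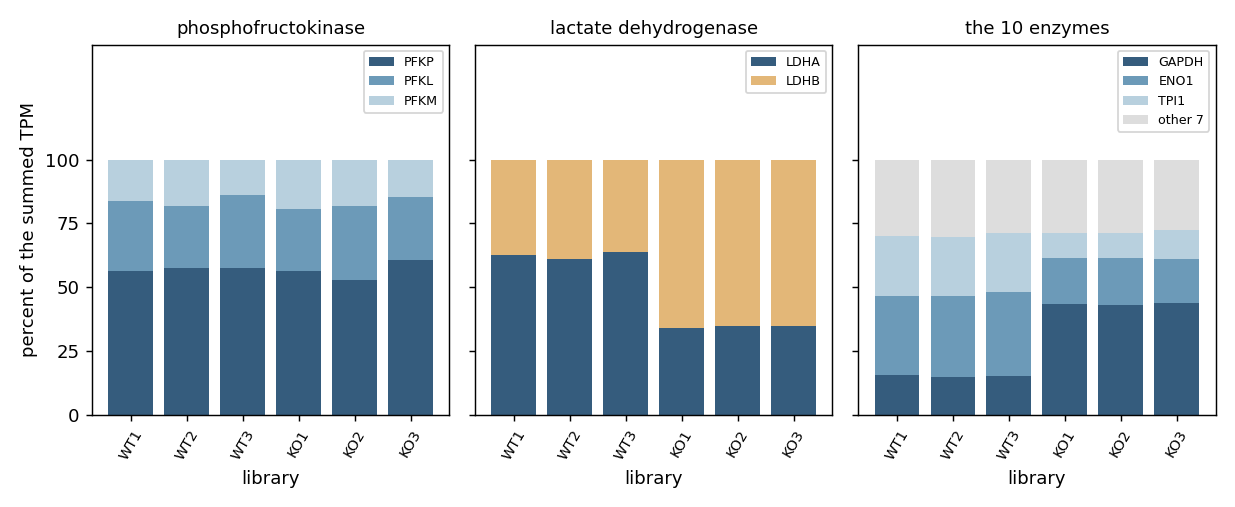
Percent of summed TPM in each rRNA-depleted library for phosphofructokinase isozymes, LDHA and LDHB, and GAPDH, ENO1, TPI1 and the other 7 among the 10 enzymes. LDHA holds 61.2% to 63.8% in the wild type and 34.0% to 34.9% with the knockout label, and GAPDH goes from about 15.3% to 43.4%.

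The genes lie apart in the genome (GENCODE 29, GRCh38): GPI at chr19:34359480-34402413, PFKP at chr10:3066333-3137712, ALDOA at chr16:30064164-30070457, TPI1 at chr12:6867119-6870948 and GAPDH at chr12:6533927-6538374. PGK1 is at chrX:77910739-78129296, PGAM1 at chr10:97426160-97433441, ENO1 at chr1:8861000-8879250, PKM at chr15:72199029-72231822 and LDHA at chr11:18394388-18408425. TPI1 overlaps SPSB2 on the other strand, which had 4 to 16 reads a library, and PGK1 overlaps ATP7A on the same strand, at a mean of 4.59 TPM. Whether counting used strand is not given in the sources used here, so reads in such overlaps are uncertain.

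Reads of GAPDH and PGAM1 can be split with near-identical pseudogenes. Of 65 annotated GAPDH pseudogenes, 16 had reads, which came to 2.76% of those of GAPDH, and the log2 change of GAPDH with their reads added was 1.69. GAPDHP1 followed GAPDH, with 5, 7 and 2 reads in the wild type and 59, 80 and 36 in the libraries labelled knockout. For PGAM1 the share was 7.51% and the log2 change with those reads 0.27. AC084117.1, an RNA annotated within an intron of LDHA on the same strand (chr11:18405609-18406731, GENCODE 29), had 20, 6 and 27 reads in the wild type and 2, 0 and 0 in the libraries labelled knockout. It was singled out after its values were seen, and its share in LDHA reads was not tested.

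Of 141 other genes in 12 lists of carbohydrate metabolism and hypoxia, 113 were tested in rRNA-depleted RNA, and 43 were higher and 7 lower, 44.2% against 35.3% of all genes. Median ratio scaling gave 29 higher and 12 lower, and without knockout-labelled library 3 the 50 calls were 18. Their median was 0.25 above that of all genes, against -0.38 for the 10 enzymes. The authors' deposited table did not share this direction. Of 116 genes of the lists tested there, 15 were higher and 23 lower, against 9.55% and 10.3% of all its tested genes. Their median log2 fold change there was -0.05. In rRNA-depleted RNA glucose entry had 0 of 11 called, with SLC2A1, the main glucose transporter, at 57.7 ± 11.9 and 52.2 ± 9.56 TPM. The authors' deposited table called 2 of 11 genes of this list higher and 3 lower, against 9.55% and 10.3% of all its tested genes. There SLC2A1 was at -0.60, the hexokinases HK1 at -0.49 and HK2 at -0.83, and the transporter SLC2A3 at 0.59. In rRNA-depleted RNA (wild type, then knockout label) HK1 was at 56.1 ± 15.0 and 66.2 ± 10.1 TPM, and HK2 at 55.7 ± 7.20 and 47.6 ± 8.61 TPM. Enzymes of the tricarboxylic acid cycle were higher for 8 of 17 and lower for 0, but under median ratio scaling 6 were higher and 3 lower. SUCLG1, a subunit of succinyl-CoA ligase, was at 9.92, 7.24 and 9.78 TPM against 67.3, 83.1 and 67.8 TPM (limma adjusted p = 0.00207), and fumarase, FH, rose from 28.7 ± 2.16 to 123 ± 16.2 TPM (limma adjusted p = 0.00176). Of the 17 cycle genes, 6 were lower and none higher in the authors' deposited table, FH among them at -0.43. Without knockout-labelled library 3, 3 of the 17 passed the threshold, while the median log2 change of the 17 was 1.23 against 0.96 with it.

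The counts at the branch points stand beside 35.3% called among all genes, 22.9% higher and 12.4% lower. Of 10 tested glycogen genes, 7 were higher and 0 lower, with 4 called under median ratio scaling. Their median log2 change was 1.31, and 1.45 without knockout-labelled library 3. Counts without that library rest on 1 knockout-labelled sample, and calls were fewer among all genes too. PGM2, which interconverts sugar phosphates, was at 11.5, 11.2 and 11.3 TPM against 53.4, 51.8 and 59.3 TPM (limma adjusted p = 0.00247), and 0.63 in the authors' deposited table. That table called 3 of 10 glycogen genes higher and 1 lower, PGM1 at -1.26, against 9.55% and 10.3% of all its tested genes. The median log2 fold change of these 10 was 0.08. In the serine and glycerol branches 6 of 10 were higher, 3 under median ratio scaling and 2 without that library. The largest change was that of PSAT1 of serine synthesis at 39.1 ± 15.0 against 255 ± 6.31 TPM (limma adjusted p = 0.00504, and 0.0888 without that library). GOT2, the mitochondrial aspartate aminotransferase of the malate shuttle, went from 42.1 ± 3.19 to 175 ± 2.05 TPM (limma adjusted p = 0.00124). In log2, PSAT1 was at 0.13 and GOT2 at 0.05 in the authors' deposited table, neither past the threshold. For pyruvate entry, 4 of 14 were higher and 2 lower, 3 in all without that library. PDP2, a phosphatase of pyruvate dehydrogenase, went from 75.1 ± 2.04 to 11.5 ± 4.20 TPM (limma adjusted p = 0.00249), and MPC2, a pyruvate carrier subunit, from 112 ± 2.22 to 52.8 ± 0.49 TPM (limma adjusted p = 0.00295) and had -0.51 in the authors' deposited table. PDP2 was at -0.38 in the authors' deposited table and did not pass. Also called, and higher, were DLD, from 7.67 ± 3.09 to 40.5 ± 17.6 TPM (limma adjusted p = 0.0187), and PDPR, from 9.21 ± 0.51 to 32.5 ± 1.07 TPM (limma adjusted p = 0.00686). DLD had 8, 4 and 4 reads in the wild type. In the authors' deposited table DLD was at -0.05 and PDPR at 0.24, neither past the threshold. MPC1, the partner of MPC2, had 0 reads in the wild type of the rRNA-depleted set and 8, 1 and 3 with the knockout label, too few for a fold. In the pentose phosphate pathway 3 of 8 were higher and 1 lower, 1 in all without that library.

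**Figure D5:**
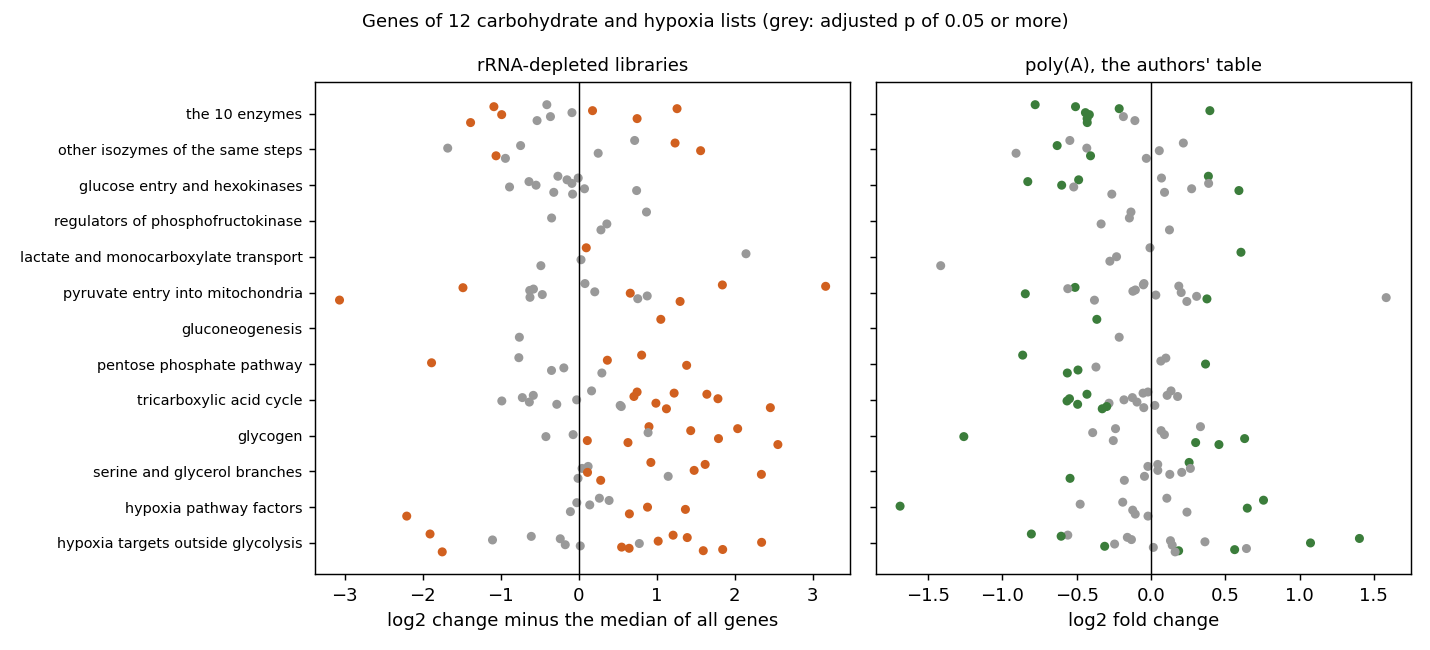
Log2 change of each gene in the 10 enzymes and 12 lists, in rRNA-depleted RNA minus the median of all genes (left) and in the authors' poly(A) table (right), 1 point per gene, coloured where the adjusted p was under 0.05 and grey otherwise. Of the glycogen genes 7 of 10 are coloured and lie right of 0 in rRNA-depleted RNA, while the 10 enzymes lie on both sides.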

How the data were processed

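RNA of HMC3 cells was sequenced in 16 libraries. Per the submitters' processing notes, Trimmomatic, STAR and DESeq2 were used with hg38; the counting tool, annotation and strand use are not given in the sources used here. TPM of 60669 genes were deposited by the authors for the rRNA-depleted set. For the poly(A) libraries they deposited 1 comparison: a pooled mean normalized count (a signal), log2 fold changes with SE, a score (the Wald statistic), p-values and adjusted p-values, per the file headers. The poly(A) results are the authors' own, with no value for a single library, so the count test foreseen for them was not run.

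Reads were recovered from TPM and GENCODE 29 exon lengths (56927 genes): 90.9% of values above 0 came out whole within 0.02 reads. Counting error only is covered by that depth. log2(TPM + 1) was fitted with limma 3.58.1 (R 4.3.3, eBayes with trend) over genes that reached 1 TPM in 3 or more libraries, with Benjamini-Hochberg adjustment at 0.05. Fold changes on this scale understate the change of low genes. Other steps used Python 3.11.15, numpy 2.4.6, pandas 2.3.3, scipy 1.17.1 and matplotlib 3.10.9.

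The fit was tested on simulated reads at a pair of assumed dispersions, the smaller one tried after the result of the larger had been seen. At both, most of the changed genes were missed, and those recovered had the right direction. Calls on unchanged genes fell on genes with a mean under 5 reads, where 2 of the 50 called list genes, MPC1 and ANKRD37, lie. A missed threshold is thus weak evidence that a gene did not change, genes with few reads included. In the data 35.3% of genes were called, far more than such low recovery would lead one to expect, and the reason was not tested, so counts of calls are read with caution.

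Members and gene lists were chosen with earlier results of these data known. Genes named beside the members are, per list, up to 4 with the largest change past the limma threshold (mean of at least 5 TPM, groups not overlapping), up to 2 from the poly(A) table (mean of at least 50), the main isozymes, pseudogenes and markers; some are not reported here. Replicate numbers did not pair the libraries. Alternatives of scaling, filter, pseudocount, GC, model, samples and threshold were run.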

Additional observations from a re-analysis of the deposited data

How the results depend on the processing

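Among all genes in rRNA-depleted RNA, 5220 calls became 2242 at an adjusted p under 0.01, and 1663 to 5185 with each library left out, the lowest without knockout-labelled library 3. For the 10 enzymes, 6 calls became 3 in eBayes without trend and 3 to 6 with each library left out, the 3 again without that library. The 50 calls in the lists became 25 at 0.01 and 18 to 50 with each library left out. In the authors' deposited table, 2782 calls became 1811 at 0.01 and 647 when the log2 size also had to reach 1, which left 0 of the enzymes' 8. Median ratio scaling lowered the share of calls that were higher from 64.8% to 48.6%. The summed level went from 1.12-fold to 0.917-fold when rescaled over protein-coding genes. Against the wild-type order of TPM, 9 of the 10 enzymes had another rank by poly(A) mean normalized count per kb. That count pools wild-type and knockout libraries, so genotype, library type and processing cannot be told apart in this difference. With the replicate number as a block and 6 separate libraries, 6037 genes, 7 enzymes and 54 list genes were called; deviations of same-numbered libraries correlated at 0.02, -0.02 and 0.01. Directions reversed for PFKL (0.15), ENO2 (0.19), SLC2A1 (0.38) and SDHC (-0.30) with the GC trend removed. TALDO1 was -0.29 and SDHC -0.20 under median ratio scaling, TALDO1 -0.22 and SDHC -0.14 rescaled over protein-coding genes, and SDHC -0.26 after quantile normalization. With each library left out, SLC2A1 ranged from -0.32 to 0.028 (without wild-type library 2) and TALDO1 from -0.0051 (without wild-type library 1) to 0.18. The cause was not tested. Few reads limit several named genes: PGAM1 had 10 to 67 a library, and in the wild type PGM2 had 6, 4 and 7 and SUCLG1 had 6, 3 and 7. Wild-type reads were also few for FH, with 8, 6 and 11, and for PSAT1, with 7, 9 and 19.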

Other observations

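Genes of the hypoxia pathway were described in the same rRNA-depleted libraries. Of 9 tested pathway factors 3 were higher in the libraries labelled knockout and 1 lower, 2 in all without knockout-labelled library 3. These 4 of 9 stand beside 35.3% called among all genes, and the median of the 9 relative to all genes was 0.27, or -0.02 without that library. The authors' deposited table called 2 of 10 higher and 1 lower, against 9.55% and 10.3% of all its tested genes. HIF1A, the inducible subunit, was at 41.3, 44.2 and 58.1 TPM (wild type) and 182, 183 and 149 TPM (knockout label) (limma adjusted p = 0.00358). VHL, which targets that subunit for degradation, was at 126, 113 and 135 TPM against 32.6, 41.0 and 33.7 TPM (limma adjusted p = 0.00169). HIF1A was at -0.12 and VHL at -0.02 in the authors' deposited table, neither past the threshold. EPAS1, a related subunit, was higher in both, from 48.0 ± 9.35 to 119 ± 20.2 TPM (limma adjusted p = 0.0102, and 0.0761 without knockout-labelled library 3), with a log2 fold change of 0.65 in the authors' deposited table.

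Among 16 tested hypoxia targets outside glycolysis, 8 were higher and 2 lower, 62.5% against 35.3% of all genes, and 5 in all passed without that library. The authors' deposited table was mixed, with 4 of 17 higher and 3 lower, against 9.55% and 10.3% of all its tested genes. LOX, a collagen cross-linking enzyme, was at 22.0, 18.9 and 24.1 TPM against 157, 171 and 141 TPM (limma adjusted p = 0.00124), and 1.07 in the authors' deposited table. ADM, a vasodilator peptide, was lower in both, from 353 ± 24.4 to 126 ± 23.9 TPM (limma adjusted p = 0.00276), with -0.81 in the authors' deposited table.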
